A study of Rattus norvegicus with 4 samples.

Results

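The genes described here encode chemokines and chemokine receptors. They are the 48 rows, of 17853 in the deposited table, whose symbol starts with Ccl, Cxcl, Cx3cl, Xcl, Ccr, Cxcr, Xcr or Ackr followed by a digit. The rule uses names and no measured value, although the family was taken up with earlier results of these data known. Of these genes 30 encode ligands and 18 encode receptors; relatives with other symbols, such as Pf4, are not among them. Polyadenylated RNA came from the brains of rats that had an intracerebral hemorrhage (blood released within the brain itself), in 4 groups of 1 library each. The groups were ipsilateral brain (the side of the bleeding) and contralateral brain (the opposite side) of old rats, 21 months of age, and ipsilateral and contralateral brain of adult rats, 13 months of age. All 4 groups carried the hemorrhage, so the contralateral side is tissue of an injured animal and not of a healthy one. The strain, the sex, the hemorrhage model and the time after the bleeding are not given in the labels. Per the labels' protocols, RNA of 9 rat brains was pooled in equal amounts, which leaves no spread between animals. Whether 9 brains went into each library or into the whole series, and whether both sides came from the same rats, is not stated.

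Chemokines are small secreted proteins that bind to the extracellular matrix and to vessel walls and draw leukocytes along a gradient. They are named after the spacing of their first cysteines (CC, CXC, CX3C and XC) and act through receptors of the seven-transmembrane type that couple to inhibitory G proteins, while the atypical receptors take chemokines up without that coupling. After bleeding or other injury of the brain, microglia, astrocytes, vessel cells and arriving leukocytes are known sources, whereas some ligands, such as Cx3cl1 of neurons, are made in the healthy brain.

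Values are RPKM, reads scaled to gene length and library size by the authors, so that levels can be set side by side between genes. The RPKM of a library summed to between 388632 and 402100, mitochondrially encoded genes took 18.5% to 24.1% of it, and the read depth behind the values is unknown. Markers of brain, the tissue named in the labels, were abundant: 9 neuronal genes summed to 1387 RPKM ipsilaterally and 1691 RPKM contralaterally at 21 months, and to 1250 and 1730 RPKM at 13 months. The 13 month contralateral library stood apart in one list of another tissue's markers. A list of 9 pineal and photoreceptor genes summed to 1.11 and 2.37 RPKM on the ipsilateral and contralateral sides at 21 months and to 1.55 RPKM on the ipsilateral side at 13 months, against 30.4 RPKM in the 13 month contralateral library. Whether that material moved a chemokine value was not tested. For some genes the side ratios with the contralateral library of the other age are given too, an alternative added after the data had been seen.

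At both ages the same 15 of the 48 genes were at least 2-fold higher on the ipsilateral side with 1 RPKM added. Among them were Cxcl2, Ccl7, Cxcl13 and Cxcr4. Another 23 genes stayed under 1 RPKM in every library, where a 2-fold difference of this measure cannot be reached. Sides were compared as the log2 ratio of (RPKM + 1) in 2 single libraries, which understates changes of low genes and, without replicates, carries no error and no test; a log2 ratio of 1, a 2-fold difference, was used as the threshold of size. At 21 months 16 of the 48 genes were higher ipsilaterally by at least that much, 33.3% of them, against 3.93% of all rows of the table, and 0 were lower, against 0.202% of all rows. At 13 months 17 of the 48 were higher, 35.4%, against 5.24% of all rows, and 0 were lower, against 0.0616%. The same genes largely made up both counts, with 15 genes past the threshold at both ages, which is 15 of 16 at 21 months and 15 of 17 at 13 months; 3.32% of all rows were past it at both ages. The median log2 ratio of the 48 genes was 0.23 at 21 months and 0.42 at 13 months, beside 0.04 and 0.0 over all rows.

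As a secondary summary limma fitted side and age, without their interaction, over all 4 libraries to the 12160 rows averaging 1 RPKM or more. The interaction gives this fit its 1 residual degree of freedom, and the fit takes its error almost entirely from a spread pooled over genes, so its standard errors do not describe the variation between rats. Of the 48 genes 25 entered this fit, and 19 of these rose on the ipsilateral side at a Benjamini-Hochberg threshold of 0.05, against 13.3% of all rows fitted. By limma 0 of the 25 fell, also without adjustment of p at 0.05, whereas 0.814% of all rows fitted fell. A gene low contralaterally enters the fit more easily if it is high ipsilaterally, so the share of 19 of 25 is partly set by that filter. Fitted to all rows without that filter, limma called 0 of the 48 genes, so every limma call of these genes is lost without the filter. An unadjusted p under 0.05 in limma, in either direction, was then found for 23 of the 48. No share of all rows is given beside that count, so it cannot be read as particular to these genes. In such bulk tissue fewer cells of a type and less RNA per cell cannot be told apart.

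**Figure D1:**
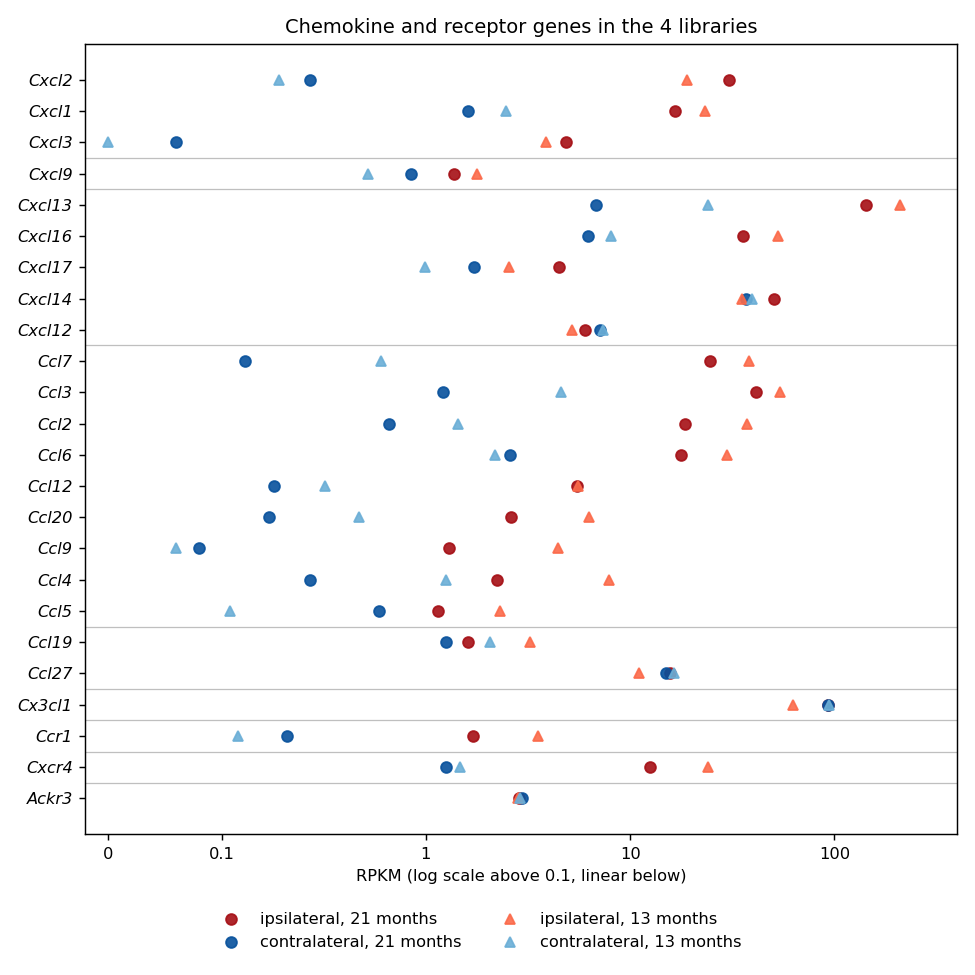
RPKM (x axis, logarithmic above 0.1) of 24 chemokine and receptor genes averaging 1 RPKM or more in the 4 libraries, 1 point per gene and library, with grey lines between groups of genes by role. For genes such as Cxcl2, Ccl7 and Cxcr4 both ipsilateral points (red) lie far to the right of both contralateral points (blue), whereas the 4 points of Ackr3 lie together near 3 RPKM.

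Of the CXC ligands that draw neutrophils, the table held Cxcl1, Cxcl2, Cxcl3 and Cxcl6, ligands of the receptor Cxcr2. Cxcl2 (ENSRNOG00000002792, chromosome 14) had 30.6 RPKM ipsilaterally and 0.27 RPKM contralaterally at 21 months, and 18.9 and 0.19 RPKM at 13 months. Both ipsilateral libraries thus stood far above both contralateral ones, by log2 ratios of 4.63 and 4.06 with 21 months first, and Cxcl2 rose by 4.35 ± 0.18 on the log2 scale in limma (SE, 2 libraries per side, adjusted p = 2.59e-13), a call lost without the filter that its ipsilateral values let it pass. Cxcl1 had 16.5 RPKM ipsilaterally and 1.60 RPKM contralaterally at 21 months, and 23.2 and 2.47 RPKM at 13 months. Its log2 ratios were nearly equal between the ages, 2.75 and 2.80. Cxcl3 had 4.87 RPKM ipsilaterally against 0.06 RPKM contralaterally at 21 months, a log2 ratio of 2.47, and 3.89 RPKM ipsilaterally at 13 months, where it was listed at 0 contralaterally. Cxcl6 stayed low, with 0.75 RPKM ipsilaterally and 0.04 RPKM contralaterally at 21 months, and 0.97 and 0.09 RPKM at 13 months. Together the 4 genes summed to 52.7 RPKM ipsilaterally and 1.97 RPKM contralaterally at 21 months, and to 47.0 and 2.75 RPKM at 13 months. Cxcr2, their receptor on neutrophils, had 0.29 RPKM ipsilaterally and was listed at 0 contralaterally at 21 months, with 0.38 and 0.01 RPKM at 13 months. At 21 months a list of 13 neutrophil genes summed to 39.1 RPKM ipsilaterally and 9.52 RPKM contralaterally. At 13 months it summed to 64.4 and 5.57 RPKM. Of its genes 4 averaged 1 RPKM or more, and 3 at 21 months and 4 at 13 months were past the threshold. The median log2 side ratio of the list was 0.08 at 21 months and 0.12 at 13 months. None of its genes was at 0 in every library, the gene of the largest mean being S100a9, a calcium-binding protein of neutrophils and monocytes, and its part in the chemokine values was not tested.

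The inflammatory CC ligands, which draw monocytes, macrophages and activated lymphocytes, were the group with the most genes past the threshold, 8 of 11 at 21 months and 9 of 11 at 13 months. Ccl7 (ENSRNOG00000000239, chromosome 10), a monocyte attractant, had 24.4 RPKM ipsilaterally and 0.13 RPKM contralaterally at 21 months, and 38.2 and 0.60 RPKM at 13 months. Its log2 ratios of 4.49 and 4.61 were close to each other, and limma gave a rise of 4.55 ± 0.17 (SE, 2 libraries per side, adjusted p = 6.48e-14), a call likewise lost without the filter that its ipsilateral values let it pass. Ccl2 (ENSRNOG00000007159, chromosome 10), the classical ligand of Ccr2 on monocytes, had 18.6 RPKM ipsilaterally and 0.66 RPKM contralaterally at 21 months, against 37.5 and 1.43 RPKM at 13 months. The sides of Ccl2 differed by log2 ratios of 3.56 at 21 months and 3.98 at 13 months. Ccl12, another Ccr2 ligand of rodents, was nearly equal in both ipsilateral libraries, at 5.48 RPKM at 21 months and 5.57 RPKM at 13 months, with 0.18 and 0.32 RPKM contralaterally.

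Ccl3 and Ccl4, neighbouring genes whose products draw macrophages and lymphocytes, differed in level and in how the ages compared. Ccl3 (ENSRNOG00000011205, chromosome 10) had 41.1 RPKM ipsilaterally and 1.21 RPKM contralaterally at 21 months, and 54.4 and 4.60 RPKM at 13 months. The RPKM ratio of the sides was therefore 34.0 at 21 months and 11.8 at 13 months, with log2 ratios of 4.25 and 3.31 after adding 1 RPKM. With the contralateral library of the other age the order of the ages turned, to log2 ratios of 2.91 and 4.65. Ccl4 had 2.24 RPKM ipsilaterally against 0.27 RPKM contralaterally at 21 months, and 7.91 against 1.25 RPKM at 13 months. The side ratio of Ccl4 was lower at 21 months, 1.35 against 1.99 on the log2 scale, and with the contralateral library of the other age the ratios were 0.53 and 2.81.

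Ccl6 and Ccl9, ligands of Ccr1 in rodents, were also higher ipsilaterally at both ages. Ccl6 had 17.7 RPKM ipsilaterally and 2.57 RPKM contralaterally at 21 months, and 29.8 and 2.17 RPKM at 13 months. Ccl9 had 1.30 RPKM ipsilaterally and 0.08 RPKM contralaterally at 21 months, and 4.45 and 0.06 RPKM at 13 months. Both genes thus had the higher side ratio at 13 months, with log2 ratios of 2.39 against 3.28 for Ccl6 and of 1.09 against 2.36 for Ccl9, 21 months first. Ccl20, the ligand of Ccr6 on T helper 17 cells and dendritic cells, had 2.60 RPKM ipsilaterally and 0.17 RPKM contralaterally at 21 months, and 6.30 and 0.47 RPKM at 13 months, log2 ratios of 1.62 and 2.31. Ccl5, which draws T cells and monocytes, had 1.14 RPKM ipsilaterally and 0.59 RPKM contralaterally at 21 months, and 2.31 and 0.11 RPKM at 13 months. It was past the threshold at 13 months, with a log2 ratio of 1.58, but at 0.43 not at 21 months; with the contralateral library of the other age the ratios were 0.95 at 21 months and 1.06 at 13 months. Ccl11 and Ccl24, eosinophil attractants, stayed at or below 0.31 RPKM in every library. The 11 genes together summed to 114.9 RPKM ipsilaterally and 6.39 RPKM contralaterally at 21 months, and to 186.9 and 11.4 RPKM at 13 months.

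The levels of markers of monocytes and macrophages moved with these ligands. All 14 genes of that list were matched, none was at 0 in every library, and their sum was 527.8 RPKM ipsilaterally and 53.4 RPKM contralaterally at 21 months, and 946.2 and 88.7 RPKM at 13 months. At each age 12 of the 14 were past a log2 ratio of 1, and Lyz2, a lysozyme of myeloid cells, had the largest mean. For 8 matched genes of microglia the sums were 211.9 and 89.1 RPKM at 21 months and 239.8 and 93.6 RPKM at 13 months, ipsilateral first. The part of either list in the chemokine values was not tested.

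**Figure D2:**
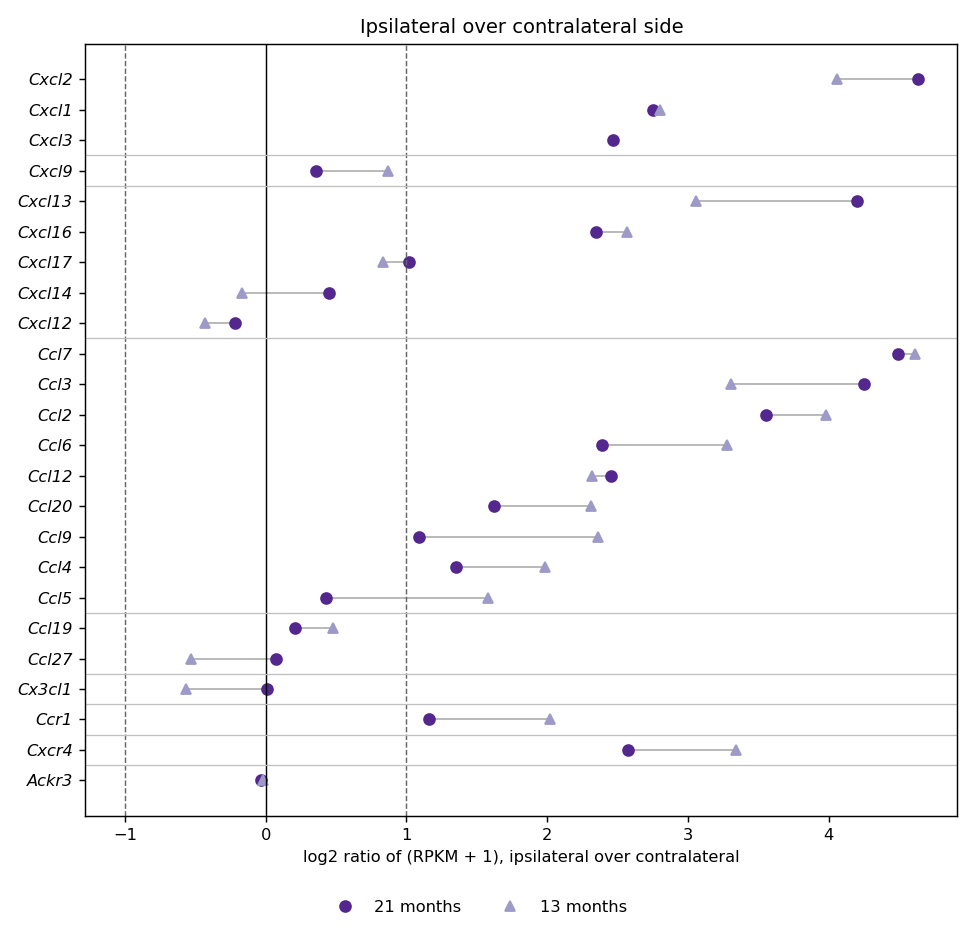
The log2 ratio of (RPKM + 1), ipsilateral over contralateral (x axis), of 24 genes averaging 1 RPKM or more, with 1 point per age and dashed lines at a 2-fold difference. The points of Cxcl2, Ccl7, Ccl3, Ccl2 and Cxcl13 lie above 3 at both ages and those of Cxcl12 below 0; the point of Cxcl3 at 13 months is left out because its contralateral value was listed at 0.

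Among the other CXC ligands, Cxcl13 had the highest ipsilateral level of any chemokine gene in the table. Cxcl13 (ENSRNOG00000024899, chromosome 14), which draws B cells through Cxcr5, had 142 RPKM ipsilaterally and 6.78 RPKM contralaterally at 21 months, and 208 and 24.1 RPKM at 13 months. The 4 values did not overlap between the sides, but the 13 month contralateral library was well above that of 21 months, so that the RPKM ratio of the sides was 21.0 at 21 months and 8.65 at 13 months. Its log2 ratios were 4.20 and 3.06, and it was the 1 gene of the 48 whose side ratio was higher at 21 than at 13 months by more than 1 (1.14), as it was in 0.482% of all rows. With the contralateral library of the other age this order turned, to log2 ratios of 2.51 at 21 months and 4.75 at 13 months. The receptor Cxcr5 had 0.06 RPKM ipsilaterally and 0.04 RPKM contralaterally at 21 months, and 0.25 and 0.10 RPKM at 13 months. A list of 8 genes of B and plasma cells summed to 4.73 RPKM ipsilaterally and 5.89 RPKM contralaterally at 21 months, and to 5.41 and 1.62 RPKM at 13 months, with none at 0 in every library. Igj, the immunoglobulin joining chain, had the largest mean, with 2.68 RPKM ipsilaterally and 5.40 RPKM contralaterally at 21 months, and 2.51 and 1.13 RPKM at 13 months, while the median log2 side ratio of the list was 0.17 and 0.47. The part of this list in the values of Cxcl13 was not tested.

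Cxcl16, a membrane-bound ligand and scavenger receptor, had 35.6 RPKM ipsilaterally and 6.19 RPKM contralaterally at 21 months, and 52.6 and 8.06 RPKM at 13 months. Its side ratios were close to each other, 2.35 and 2.57 on the log2 scale, with a rise of 2.46 ± 0.17 in limma (SE, 2 libraries per side, adjusted p = 5.06e-10). The Cxcl16 gene overlaps Zmynd15 in the RefSeq annotation, and whether the authors' counting separated them is not given in the sources used here. Cxcl17, a mucosal chemokine, had 4.49 RPKM ipsilaterally and 1.71 RPKM contralaterally at 21 months, and 2.55 and 0.99 RPKM at 13 months. It lay at the threshold, with log2 ratios of 1.02 and 0.84, and fell below it at 21 months, to 0.93 and 0.94, under 2 other scalings of the libraries; with the contralateral library of the other age the ratios were 1.46 and 0.39. Cxcl9, an interferon-induced ligand of Cxcr3 on T cells, had 1.37 RPKM ipsilaterally and 0.85 RPKM contralaterally at 21 months, and 1.78 and 0.52 RPKM at 13 months. It was not past the threshold. Its fitted rise of 0.61 ± 0.18 passed limma (SE, 2 libraries per side, adjusted p = 0.0205), after the filter that its ipsilateral values let it pass. Without that filter the call was lost (limma adjusted p = 0.264). It was also lost when the libraries were scaled without mitochondrially encoded genes (limma adjusted p = 0.0836), which left 18 of the 19 genes. Cxcr3 itself stayed at or below 0.72 RPKM.

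The following ligands, known from uninjured brain or lymphoid traffic, were not past the threshold at either age, whereas Cxcl13, described above, was. Cx3cl1, the membrane-bound chemokine of neurons, had 93.3 RPKM ipsilaterally and 93.0 RPKM contralaterally at 21 months, and 63.0 and 94.0 RPKM at 13 months. The 13 month ipsilateral library was thus lower than the others, which were nearly equal, with log2 ratios of 0.01 and -0.57. Cxcl12, the ligand of Cxcr4 and Ackr3, had 6.02 RPKM ipsilaterally and 7.15 RPKM contralaterally at 21 months, and 5.19 and 7.35 RPKM at 13 months. It was lower ipsilaterally at both ages, by log2 ratios of -0.22 and -0.43, which limma did not call (adjusted p = 0.269). Cxcl14, a chemokine of neurons and epithelia, had 50.5 RPKM ipsilaterally and 36.7 RPKM contralaterally at 21 months, and 35.2 and 39.7 RPKM at 13 months, so its sides differed in opposite directions at the ages. Ccl27 had 15.7 RPKM ipsilaterally and 14.9 RPKM contralaterally at 21 months, and 11.1 and 16.5 RPKM at 13 months. Its gene overlaps Il11ra1 in RefSeq, so its values are uncertain. Ccl19, a ligand of Ccr7 on dendritic cells and T cells, had 1.61 RPKM ipsilaterally and 1.26 RPKM contralaterally at 21 months, and 3.25 and 2.05 RPKM at 13 months, log2 ratios of 0.21 and 0.48. With the contralateral library of the other age its ratios were -0.22 and 0.91. The sign of the 21 month side ratios of Cx3cl1 and Ccl27 turned under both other scalings of the libraries, to -0.11 and -0.04. The 9 neuronal genes whose sums are given above had a median log2 side ratio of -0.28 at 21 months and -0.41 at 13 months. With the authors' scaling and sides of the same age, Cxcl12 alone of the ligands not past the threshold in this paragraph was lower ipsilaterally at 21 months. At 13 months all of them but Ccl19 were. The part of the neuronal genes was not tested.

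Set against each other, the 30 ligand genes summed to 519 RPKM ipsilaterally and 178 RPKM contralaterally at 21 months, and to 618 and 208 RPKM at 13 months. Cxcl13 made up 27.4% of the sum ipsilaterally and 3.80% contralaterally at 21 months, and 33.7% and 11.6% at 13 months. Cx3cl1 made up 18.0% ipsilaterally and 52.1% contralaterally at 21 months, and 10.2% and 45.1% at 13 months. Cx3cl1 and then Cxcl14 were thus the highest ligands contralaterally at both ages, while Cxcl13 was the highest ipsilaterally.

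**Figure D3:**
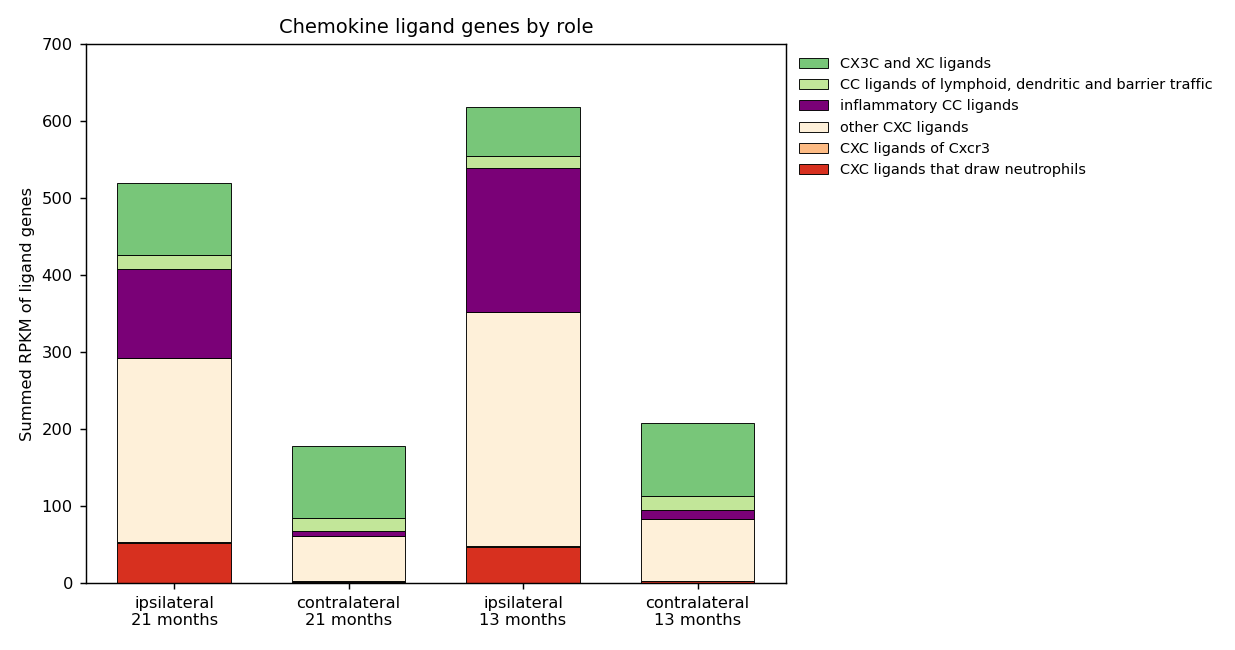
Summed RPKM (y axis) of the 30 ligand genes in each of the 4 libraries (x axis), with the bars divided by the role of the ligands. The inflammatory CC ligands take 114.9 and 186.9 RPKM in the ipsilateral bars against 6.39 and 11.4 RPKM in the contralateral ones, 21 months first in each pair, and Cxcl9, the ligand of Cxcr3, is too low to be seen.

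Of the receptors, Cxcr4 had the highest ipsilateral level and the largest side ratio. Cxcr4 (ENSRNOG00000003866, chromosome 13), the receptor of Cxcl12 on leukocytes and progenitor cells, had 12.4 RPKM ipsilaterally and 1.26 RPKM contralaterally at 21 months, and 24.0 and 1.47 RPKM at 13 months. Both ages were past the threshold, with log2 ratios of 2.57 and 3.34, and Cxcr4 rose by 2.96 ± 0.19 in limma (SE, 2 libraries per side, adjusted p = 1.48e-10). Its ligand Cxcl12 was lower on that side, and the atypical receptor Ackr3, which takes up Cxcl12, was nearly equal in all libraries, at 2.86 and 2.95 RPKM at 21 months and 2.82 and 2.88 RPKM at 13 months, ipsilateral first.

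Ccr1, the receptor of Ccl3, Ccl5 and Ccl7 on monocytes and neutrophils, had 1.70 RPKM ipsilaterally and 0.21 RPKM contralaterally at 21 months, and 3.54 and 0.12 RPKM at 13 months. Its log2 ratios were 1.16 and 2.02. Ccr2, the monocyte receptor of Ccl2, Ccl7 and Ccl12, was low in each library, with 0.33 RPKM ipsilaterally and a listed 0 contralaterally at 21 months, and 0.67 and 0.27 RPKM at 13 months, although its 3 ligands were among the genes with high side ratios.

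The remaining receptors and several ligands were near the lower limit of the table. In all 23 of the 48 genes stayed under 1 RPKM in every library, between 0 and 0.97 RPKM. Besides Cxcl6, Ccl11, Ccl24, Cxcr2, Cxcr3, Cxcr5 and Ccr2 these were the ligand genes Ccl17, Ccl21, Ccl22, Ccl25, Ccl28 and Xcl1 and the receptor genes Ccr3, Ccr4, Ccr6, Ccr7, Ccr8, Ccr9, Ccr10, Cxcr1, Xcr1 and Ackr2. None of them was past the threshold in any comparison with 1 RPKM added, which at such levels would need an increase of more than 1 RPKM. With 0.1 RPKM added, 19 of the 48 genes were higher and 2 lower ipsilaterally by at least 2-fold at 21 months, beside 7.99% and 1.22% of all rows. At 13 months 26 were higher and 2 lower by as much, beside 9.34% and 1.39%. T and NK cells carry several of these receptors. At 21 months their 17 marker genes summed to 33.7 RPKM ipsilaterally and 8.86 RPKM contralaterally, and at 13 months to 55.5 and 8.75 RPKM. The largest mean was that of Cd4, which rat macrophages carry too. Of the 17 genes 4 averaged 1 RPKM or more, and their median log2 side ratio over all 17 was 0.19 and 0.72. For 7 genes of dendritic cells the sums were 12.6 and 8.89 RPKM at 21 months and 14.2 and 8.58 RPKM at 13 months, ipsilateral first; no gene of either list was at 0 in every library.

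Many of the genes past the threshold lay on chromosomes 10 and 14, for which the share of all rows past it is not given. Chromosome 10 holds 12 of the 48 genes, of which 8 were past the threshold at 21 months and 9 at 13 months, and chromosome 14 holds 6, of which 4 were past it at each age. In the RefSeq gene order Ccl2, Ccl7, Ccl11 and Ccl12 are direct neighbours, of which Ccl11 alone was not past the threshold at either age. Another run of neighbours on that chromosome holds Ccl5, Ccl9, Ccl6, Ccl3 and Ccl4, all 5 of them past the threshold at 13 months and 4, all but Ccl5, at 21 months. Cxcl2 and Cxcl1 are neighbours on chromosome 14. On chromosome 8, which holds 10 genes of the family, most of them CC receptors, Ccr1 was past the threshold at both ages. Neighbouring members arose by gene duplication and resemble each other in sequence, so reads that match several of them may be shared in ways that the sources used here do not describe.

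Promoter sequences from RefSeq (build GRCr8, 250 bases before the start site to 50 after it) were at hand for 35 of the 48 genes and were searched because many of the genes were high together. They are shown for the 4 ligands with the largest mean side ratio for which the RefSeq table has an entry; Ccl2 and Ccl3, which also rank among the highest, are named only. Capitals mark every match of GGG and CC with any 5 bases between them, a loose form of the site of NF-kB, a transcription factor of inflammatory signalling, on either strand, written 5′ to 3′ on the strand of the gene, with overlapping matches run together.
Ccl7, chr10:67513845-67514144, plus strand: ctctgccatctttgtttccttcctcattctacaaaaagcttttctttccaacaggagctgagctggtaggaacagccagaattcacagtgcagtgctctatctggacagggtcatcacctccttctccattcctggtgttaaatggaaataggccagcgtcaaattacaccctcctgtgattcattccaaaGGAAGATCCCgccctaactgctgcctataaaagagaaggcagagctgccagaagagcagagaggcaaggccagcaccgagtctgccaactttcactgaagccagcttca
Cxcl2, chr14:17467206-17467505, minus strand: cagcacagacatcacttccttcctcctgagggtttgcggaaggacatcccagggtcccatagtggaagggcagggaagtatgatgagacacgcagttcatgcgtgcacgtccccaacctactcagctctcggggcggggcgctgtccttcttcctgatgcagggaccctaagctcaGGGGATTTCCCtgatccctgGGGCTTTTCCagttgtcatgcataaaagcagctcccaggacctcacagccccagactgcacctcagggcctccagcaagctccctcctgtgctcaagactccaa
Cxcl13, chr14:13917871-13918170, minus strand: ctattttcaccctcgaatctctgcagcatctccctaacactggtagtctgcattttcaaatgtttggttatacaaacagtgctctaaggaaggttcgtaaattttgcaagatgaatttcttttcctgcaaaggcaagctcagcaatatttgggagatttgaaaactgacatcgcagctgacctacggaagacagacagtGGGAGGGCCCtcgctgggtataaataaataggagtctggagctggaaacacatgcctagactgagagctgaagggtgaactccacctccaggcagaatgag
Ccl6, chr10:68883317-68883616, minus strand: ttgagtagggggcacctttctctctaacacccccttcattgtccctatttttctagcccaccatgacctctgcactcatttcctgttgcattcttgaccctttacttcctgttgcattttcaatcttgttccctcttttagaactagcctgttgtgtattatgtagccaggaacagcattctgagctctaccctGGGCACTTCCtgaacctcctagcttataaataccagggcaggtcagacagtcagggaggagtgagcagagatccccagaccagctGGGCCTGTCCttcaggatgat

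In Cxcl2 the match GGGGATTTCC starts at -74 and GGGCTTTTCC at -54, counted from the start site. Ccl7 holds GGAAGATCCC, a match on the other strand, at -59, Cxcl13 holds GGGAGGGCCC at -51, and Ccl6 holds GGGCACTTCC at -56 and GGGCCTGTCC at 29. The loose pattern is common, as 47.3% of all 33469 promoters in the table hold it, beside 18 of the 35 promoters of chemokine and receptor genes. A stricter pattern, GGG and TTCC with any 3 bases between them on either strand, chosen after these sequences had been read, was in 5.37% of all promoters and in 8 of the 35, namely those of Ccl6, Ccl7, Ccl9, Ccl20, Cxcl1, Cxcl2, Cxcl6 and Ccr3. The first 6 of these 8 genes were past the threshold at both ages, a group for which 11 promoters were at hand. A form of the interferon-stimulated response element, TTTC and TTTC with any 2 bases between them, was in 3.92% of all promoters and in 1 of the 35, that of Ccl19. A match is a run of letters and does not show that a factor binds there, and promoters of duplicated neighbours are not independent of each other.

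The ages were compared on each side to ask how the response of old rats differed from that of adults. On the ipsilateral side 32 of the 48 genes were lower at 21 than at 13 months, 12 were higher and 4 were equal, with a median log2 ratio of -0.15, while over all rows 7893 were lower and 9141 higher, with a median of 0.01. The inflammatory CC ligands were lower at 21 months in all 11 cases, and on the contralateral side in 7 of the 11. Ipsilaterally Ccl12 was nearly equal, at 5.48 against 5.57 RPKM, and Ccl11 and Ccl24 were low, at or below 0.31 RPKM. Past a log2 ratio of 1 were Ccl4 (-1.46), Ccl9 (-1.24) and Ccl20 (-1.02), which is 6.25% of the 48 genes against 0.471% of all rows, and 0 genes were higher by as much, against 0.241% of all rows. By at least 1.5-fold 10 genes were lower, 20.8% against 3.13% of all rows, and 2 were higher, 4.17% against 2.84%. These 10 were Ccl2, Ccl4, Ccl5, Ccl6, Ccl7, Ccl9, Ccl19, Ccl20, Ccr1 and Cxcr4, of which Ccl2 was at -0.98 and Cxcr4 at -0.90. The 2 higher genes were Cxcl2, at 0.67, and Cxcl17, at 0.63, so that among the neutrophil attractants Cxcl2 and Cxcl1 (-0.47) differed in opposite directions between the ages. On this side the summed markers of monocytes and macrophages were lower at 21 months too, with 527.8 RPKM against 946.2 RPKM at 13 months. So were the sums of neutrophil markers (39.1 against 64.4 RPKM) and of T and NK cell markers (33.7 against 55.5 RPKM). In the neutrophil list S100a9 alone had 16.2 against 31.7 RPKM. In the T and NK list Cd4, of the largest mean, went the other way, with 19.0 against 14.5 RPKM. The part of these lists in the age ratios was not tested.

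On the contralateral side 2 of the 48 genes were past the threshold between the ages. Cxcl13 (-1.69) and Ccl3 (-1.34) were lower at 21 months by more than 1 on the log2 scale, 4.17% of the 48 genes against 0.112% of all rows, and 0 genes were higher by as much, against 0.157%. The RPKM of Cxcl13 was 6.78 at 21 months and 24.1 at 13 months, and that of Ccl3 was 1.21 and 4.60. Ccl4, at -0.83, made 3 genes lower by at least 1.5-fold, 6.25% of the 48 against 0.358% of all rows, and 0 were higher by as much, against 0.499%. The median over the 48 genes was -0.014, beside -0.011 over all rows. The contralateral sums of the monocyte and macrophage markers were 53.4 RPKM at 21 months and 88.7 RPKM at 13 months, and the 13 month library is the one with pineal and photoreceptor markers; their part in these 2 genes was not tested. Set against the 13 month contralateral library, the 21 month ipsilateral library had 15 genes past a log2 ratio of 1. The 13 month ipsilateral library had 17 against the contralateral library of 21 months. No share of all rows is given beside these counts, so they cannot be read as particular to these genes.

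**Figure D4:**
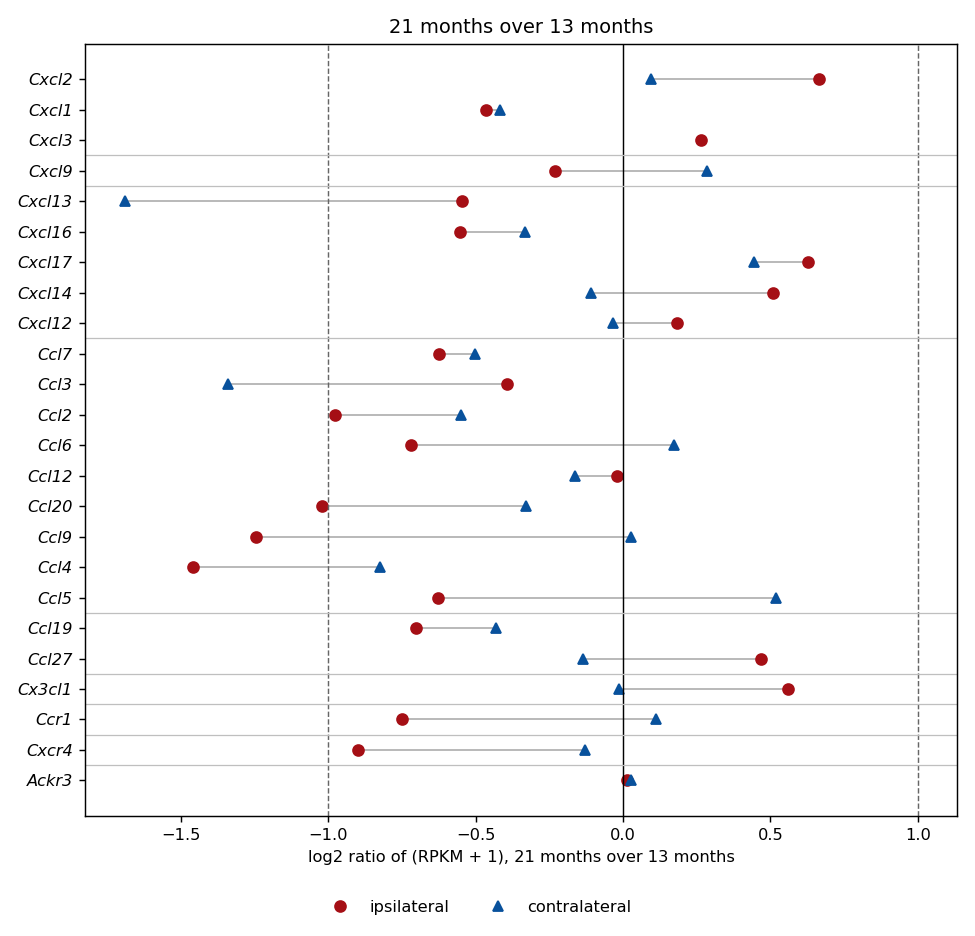
The log2 ratio of (RPKM + 1), 21 months over 13 months (x axis), of 24 genes averaging 1 RPKM or more, with 1 point per side and dashed lines at a 2-fold difference. On the ipsilateral side Ccl4, Ccl9 and Ccl20 lie left of -1 and Cxcl2 and Cxcl17 right of 0.6, while on the contralateral side Cxcl13 and Ccl3 lie left of -1; the contralateral point of Cxcl3 is left out because its 13 month value was listed at 0.

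The difference of the side ratio between the ages, which has no error with 1 library per group, was past 1 in either direction for 3 of the 48 genes. It was 1.14 for Cxcl13, where the contralateral level differed most, and -1.27 for Ccl9 and -1.15 for Ccl5, which is 4.17% of the 48 genes against 0.543% of all rows with a difference of -1 or less. Ccl9 differed between the ages ipsilaterally and Ccl5 on both sides in opposite directions, with 1.14 and 2.31 RPKM ipsilaterally and 0.59 and 0.11 RPKM contralaterally at 21 and 13 months.

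Genes that act below or above the chemokine receptors were described from lists chosen with earlier results of these data known. Of 61 matched genes of signalling below the receptors, 17 were past a log2 side ratio of 1 at each age. At neither age was any lower by as much, with medians of 0.38 at 21 months and 0.35 at 13 months. Of the 59 that entered the limma fit 27 rose and 0 fell, against 13.3% and 0.814% of all rows fitted. The filter of that fit sets such shares in part, here and in the lists below. The highest were Gngt2, a G protein gamma subunit (3.25 and 2.96), Ncf1, a subunit of the phagocyte oxidase (2.74 and 3.25), and Rac2, a small GTPase of leukocyte migration (3.13 and 2.62), 21 months first, all 3 known from myeloid cells. At the other end were Prkcb (-0.26 and -0.35) and the phospholipase gene Plcb1 (-0.57 and -0.37), both abundant in neurons, which limma did not call.

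Of 28 inducers of chemokines and NF-kB factors 11 were higher past the threshold at 21 months and 16 at 13 months, with medians of 0.79 and 1.05. Il1b, the cytokine interleukin 1 beta, had 25.6 RPKM ipsilaterally and 0.87 RPKM contralaterally at 21 months, and 51.8 and 3.75 RPKM at 13 months, log2 ratios of 3.83 and 3.47. Tlr2, a receptor for microbial and damage-released molecules, had log2 ratios of 2.17 and 2.90 and Irak3, an inhibitor of that pathway, 1.47 and 2.20, while the kinase gene Ikbkb (0.33 and 0.62) and the inhibitor gene Nfkbib (0.61 and 0.07) were lowest. Of the 20 that entered the limma fit 17 rose and 0 fell. Of 14 interferon factors 4 were past the threshold at 21 months and 6 at 13 months. They were led by Irf8 (1.92 and 2.06), Irf7 (1.32 and 1.64) and Ifngr1 (1.47 and 1.46), with Irf3 (0.70 and 0.17) and Jak1 (0.14 and 0.33) lowest. Of the 13 fitted in limma 11 rose and 0 fell.

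Of 14 relatives and regulators of chemokines outside the naming rule, 5 were past the threshold at 21 months and 7 at 13 months. In limma 9 of these 14 were fitted, and all 9 rose. Pf4, a CXC chemokine of platelets also known as Cxcl4, had 36.3 RPKM ipsilaterally and 2.59 RPKM contralaterally at 21 months, and 48.2 and 2.77 RPKM at 13 months, log2 ratios of 3.38 and 3.71. The 6 matched platelet and megakaryocyte genes summed to 1.24 RPKM ipsilaterally and 0.88 RPKM contralaterally at 21 months and to 0.71 and 1.22 RPKM at 13 months, and their part in the values of Pf4 was not tested. Sdc1, a heparan sulfate proteoglycan that holds chemokines at the cell surface, had log2 ratios of 3.63 and 4.37, and C5ar1, the receptor of the complement chemoattractant C5a, 2.27 and 2.49. Sdc4 (0.38 and 0.87) and the protease gene Mmp2 (0.70 and 0.39) were lowest.

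Other cell lists gave these sums. Astrocyte genes summed to 2479 RPKM ipsilaterally and 1497 RPKM contralaterally at 21 months and to 2139 and 1675 RPKM at 13 months over 9 genes, where Gfap alone was past the threshold at each age. Endothelial genes summed to 45.1 and 44.0 RPKM at 21 months and to 54.2 and 43.5 RPKM at 13 months over 9 genes, and pericyte and fibroblast genes to 49.4 and 43.1 RPKM and to 57.0 and 40.5 RPKM over 10 genes, ipsilateral first. Choroid plexus genes summed to 1070.0 and 1803 RPKM at 21 months and to 673 and 1226 RPKM at 13 months over 7 genes. The sums of erythroid genes were 36.4 and 58.5 RPKM at 21 months and 53.0 and 61.7 RPKM at 13 months over 6 genes, those of pituitary genes 4.54 and 11.0 RPKM and 9.41 and 4.86 RPKM over 6 genes, and those of mast cell genes 5.62 and 6.51 RPKM and 4.43 and 7.85 RPKM over 5 genes.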

How the data were processed

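Per the labels' protocols, pooled total RNA went through oligo(dT) beads into directional libraries. Tools given without version or role in the submitters' processing notes are TopHat2 and cutadapt, and the build named there is GRCh38, a human build, although the table holds rat Ensembl identifiers. The build, gene lengths and counting step are therefore not settled. The deposited values are RPKM, rounded by the authors to 2 decimals; whole reads could not be recovered, since low values (a lower quartile of 0.02 RPKM among the values above 0 of 109 olfactory receptor genes) lie near the rounding step of 0.01.

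All 17853 rows were analysed as log2(RPKM + 1), and a log2 ratio of at least 1 or at most -1 was counted. limma 3.58.1 (R 4.3.3, lmFit and eBayes, two-sided, prior degrees of freedom 19.54) fitted the side with age to 12160 rows. The step was run on simulated data with known shifts and the same independent noise for every gene. That run checks the working of the step and not the calls in these data. Genes are named if their mean is at least 1 RPKM or they pass the threshold in a comparison, except 1 gene of the 48 that is counted but not reported here; of pathway lists the 3 highest and 2 lowest with a mean of at least 1 RPKM are named. The 48 genes and the 20 lists were chosen with earlier results of these data known. Of 276 list entries 260 were matched, 3 by an older name, and the highest row was used for a repeated symbol. All 48 symbols were found in RefSeq (GRCr8), used for gene order, overlaps and promoters. Low members named beside others (such as Cxcl6, Ccr2 and Cxcr5) and Pf4's platelet comparison are given beyond the naming rule. Alternatives were another pseudocount, filters, 2 scalings, a 1.5-fold threshold and the contralateral library of the other age.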

Additional observations from a re-analysis of the deposited data

Results flagged for a closer look

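Some genes differed in opposite directions in the 2 groups that share a contrast. These differences rest on 1 library per group and were not tested.

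Between the sides, Cxcl14 had a log2 ratio of 0.45 at 21 months and -0.17 at 13 months, Ccl27 had 0.072 and -0.53, and Cx3cl1 had 0.0054 and -0.57. For Ccl27 and Cx3cl1 the value at 21 months is near 0 and turns negative under other scalings.

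Between the ages, with the ipsilateral ratio of 21 over 13 months given first and the contralateral one after it, Ccl9 had log2 ratios of -1.24 and 0.03, Ccr1 of -0.75 and 0.11, Ccl6 of -0.72 and 0.17, Ccl5 of -0.63 and 0.52, and Cxcl9 of -0.23 and 0.28. In the other direction, Cx3cl1 had 0.56 and -0.01, Cxcl14 0.51 and -0.11, Ccl27 0.47 and -0.14, and Cxcl12 0.18 and -0.03. The contralateral values of most of these genes are close to 0, while Ccl5 is the 1 gene of these with a size of at least 0.5 on both sides.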

How the results depend on the processing

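With 1 library per group there is no error on a ratio, and the depth behind low values is unknown. No paired analysis was possible because the labels give no replicate numbers and do not tie libraries to animals; the limma fit pairs the sides by age alone. Of the 50 side ratios of named genes, none that was past the threshold changed its sign with the contralateral library of the other age. Another pseudocount or a filter cannot change a sign, and the 2 scalings were too small to turn a 2-fold difference. Both scalings and the contralateral library of the other age each gave 15 genes past a 2-fold side difference at 21 months, beside 16, and 17 at 13 months, as before. Of all rows 3.37% and 3.41% were higher by as much under the 2 scalings at 21 months, and 5.09% and 4.65% at 13 months. No share of all rows is given for the contralateral library of the other age. Counts of higher or lower genes below are past a 2-fold difference unless another threshold is named. With 0.1 RPKM added, 2 genes were lower ipsilaterally at 21 months, 26 were higher and 2 lower at 13 months (9.34% and 1.39% of all rows), 9 were lower at 21 months ipsilaterally (2.08% of all rows), 2 were higher and 7 lower contralaterally (1.13% and 1.18% of all rows), and 10 had a difference of the side ratio past 1; the medians of the 48 genes were then 0.57 and 1.31, 21 months first. With a mean of at least 1 RPKM required, which leaves 25 genes, the medians were 1.35 and 2.29, beside 0.086 and 0.0093 over all rows so filtered; genes that pass only through high ipsilateral values set these medians in part, and those under the next filter. With a mean of at least 5 RPKM, which leaves 14 genes, 9 and 10 were higher ipsilaterally at 21 and 13 months. Of all rows so filtered 5.15% and 6.16% were higher. The medians were 2.48 and 2.93, beside 0.070 and -0.014 over these rows. Ipsilaterally 0 of the 14 genes were lower at 21 than at 13 months by at least 2-fold, against 0.699% of these rows. A difference of the side ratio past 1 was left in 1 gene, and limma called 10. For these last counts, and for the 10 such differences with 0.1 RPKM added, no share of all rows is given. The 1.5-fold threshold gave 2 genes higher and 10 lower at 21 months ipsilaterally. With no filter limma called 0 genes; the cause was not tested.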
